A study of Gallus gallus with 6 samples.

Results

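The kinases described here are 5 genes of PI3-kinase signalling: PIK3CA and PIK3CD, which encode class I catalytic subunits, AKT1 and SGK3, which encode kinases recruited below them, and RPS6KA1, which encodes a ribosomal S6 kinase (RSK). They were chosen by name, with earlier results of these data known. Every probe whose accession matched one of them was taken, which gave 16 probes for 5 of the 4932 genes that could be named on the array. PIK3CD and RPS6KA1 each had 5 probes, PIK3CA 3, AKT1 2 and SGK3 1. Expression was measured on one-colour Agilent arrays in DT40 cells, B cells grown from a chicken bursal lymphoma, with 1 array for each of 3 wild-type and 3 IRF4-deficient cultures. Both groups were untreated cells of the same line, and they differed in the IRF4 gene, which encodes a transcription factor of B cell activation. The protocol in the labels calls the cultures of each genotype independent. Neither the number of knockout clones nor the disrupted part of IRF4 is stated in those labels, so clone and genotype cannot be told apart. The p-values measure the spread between these cultures.

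Class I PI3-kinases sit at the plasma membrane and phosphorylate an inositol lipid, and the product recruits kinases that carry the matching lipid-binding domain. In B cells they are engaged by the antigen receptor and its co-receptors, and the delta isoform is the one best known from leukocytes. AKT kinases are recruited by this lipid and activated by PDPK1 and mTOR complexes, and they act on growth, survival and FOXO transcription factors. SGK3 carries a domain that binds the lipid of endosomes, and RSK kinases take their input mainly from ERK, with PDPK1 as a shared activator. These roles are background, known mostly from human and mouse cells.

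The targeted gene was examined first. The brighter IRF4 probe stood in the knockout at 5.39% of the wild-type signal (log2 fold change -4.21 ± 0.095, SE, limma adjusted p = 4.08e-07), and the dimmer one, well above background on all 3 wild-type arrays and on 0 knockout arrays, was at least 11.2-fold lower. Of 14 B cell markers 11 had a matched probe, and all 11 were well above background on every array of both groups. Signals of a list were summed as multiples of each array's 75th percentile. The B cell list lay at 116 to 128 in wild type and 170 to 180 in the knockout, with 7 genes higher and 1 lower. The largest rises were those of CD72 (3.21 ± 0.062 on the log2 scale) and TNFRSF13B (1.46 ± 0.047). CD72, at a mean of 2.39 in wild type and 5.60 in the knockout, carried most of the rise of the sum. TNFRSF13C was the lower gene (-0.59 ± 0.039), and CD79B, BTK and POU2AF1 were not called on their brightest probes. Of all their probes, 1 of 2 for CD79B was called higher and 1 of 3 for POU2AF1 lower. The fibroblast, T cell and myeloid lists also held genes called different between the genotypes. The fibroblast list lay at 0.331 to 0.356 in wild type and 5.66 to 6.51 in the knockout, with 1 and 2 of its 5 measured genes well above background on all arrays of the group, while DCN, PDGFRA and FN1 did not pass the filter. Its collagen gene COL1A2 rose by 4.24 ± 0.061 on the log2 scale. With a mean of -1.68 in wild type and 2.56 in the knockout, COL1A2 made up most of the sum in both groups. The T cell list lay at 68.4 to 70.8 and 74.95 to 88.6, with 5 of 8 measured genes well above background in each group and CD4, CD28 and GATA3 not passing. Of its 5 tested genes 3 were lower, CD3E at -3.44, CD8A at -1.13 and CD247 at -0.26, and CD5 was higher at 1.56. CD3D, the brightest in the sum, was not called on its brightest probe (0.17), though 1 of its 2 probes was called higher. The myeloid list lay at 0.785 to 0.845 and 0.456 to 0.571, with 5 of 7 and CD14 and CSF3R not passing. Its 0.456 is the sum of knockout replicate 1 without LYZ, which has no value on that array, so it is too low to compare. Of its 5 tested genes 3 were lower and 1 higher. The erythroid list lay at 0.0172 to 0.0183 and 0.0188 to 0.0238, with 0 and 1 of 2 genes well above background. Its 1 tested gene, HBA1, was not called. The part of these lists in the results below was not tested. In bulk RNA, fewer cells of a type and less RNA per cell cannot be told apart.

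Of the 16 probes 15 were well above background on all 6 arrays and were tested, and 12 of these were lower in the knockout, 0 were higher and 3 did not pass the test. The 15 probes are repeated readings of 5 genes chosen with earlier results known, not 15 separate results. Across all 28786 tested probes 70.1% were called in either direction, 29.6% lower and 40.5% higher, and in 75.6% the groups did not overlap. A call or a separation of the groups was thus common on these arrays. Calls used limma with a Benjamini-Hochberg adjusted p under 0.05 over all tested probes. A log2 fold change of -1 or lower with a call was seen for 6.58% of all probes, for the brightest probe of 7.01% of named genes and for all 8 probes of PIK3CA and PIK3CD. The median log2 fold change of all probes was 0.08. Signals below are log2 values relative to the array's 75th percentile, fold changes are knockout minus wild type with limma's standard error (SE), and n is 3 arrays in each group throughout. Levels are compared between arrays for 1 probe. Ranks of probes by brightness and sums over marker lists describe array signal, not amounts of RNA compared between genes.

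**Figure D1:**
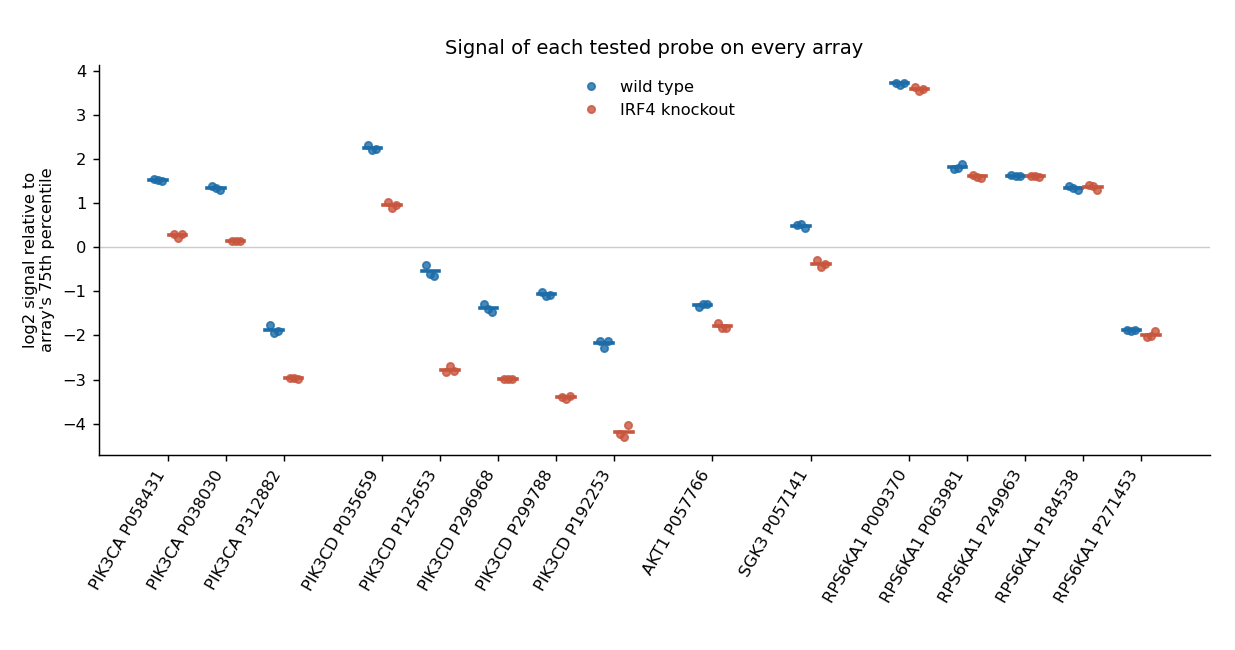
Log2 signal relative to the array's 75th percentile (vertical axis) for the 15 tested probes of the 5 genes, with points for the 3 wild-type and 3 knockout arrays and a bar at each group mean. The groups stand apart for all 8 PIK3CA and PIK3CD probes and overlap for 3 of the 5 RPS6KA1 probes; heights of different probes are not comparable.

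PIK3CA, the gene of the alpha catalytic subunit, was lower in the knockout on each of its 3 probes, to between 41.8% and 46.7% of the wild-type signal. The brightest probe (A_87_P058431) read 1.55, 1.53 and 1.50 on the wild-type arrays and 0.29, 0.21 and 0.30 on the knockout arrays. Its lowest wild-type value thus lay far above its highest knockout value, and the fall was 2.39-fold (log2 fold change -1.26 ± 0.041, limma adjusted p = 1.63e-06). The second probe (A_87_P038030) read 1.40, 1.34 and 1.30 in wild type and 0.15, 0.15 and 0.13 in the knockout, a 2.31-fold fall (-1.20 ± 0.039, limma adjusted p = 1.52e-06). The dimmest (A_87_P312882), with intensities of 780 to 873 in wild type and 334 to 363 in the knockout, fell 2.14-fold (-1.10 ± 0.055, limma adjusted p = 9.35e-06).

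The changes of the 3 PIK3CA probes lay within 0.16 of each other on the log2 scale. Among the 698 named genes with 3 tested probes, not matched for the size of their change, the median range between probes was 0.14. Of these genes 45.3% had a wider range than PIK3CA. On the 2 slides that held an array of each group, the brightest probe differed by -1.25 and -1.32.

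PIK3CD, the gene of the delta catalytic subunit, was lower on all 5 of its probes, but by amounts that ranged from 2.45-fold to 5.04-fold. The brightest probe (A_87_P035659) read 2.31, 2.22 and 2.23 in wild type and 1.03, 0.90 and 0.96 in the knockout. This probe gave the smallest change (-1.29 ± 0.050, limma adjusted p = 3.21e-06), which left 40.9% of the wild-type signal.

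The other 4 PIK3CD probes were dimmer and changed more. Probe A_87_P125653 read -0.40, -0.60 and -0.64 in wild type and -2.82, -2.70 and -2.81 in the knockout, a 4.69-fold fall (-2.23 ± 0.076, limma adjusted p = 1.92e-06). Probe A_87_P299788 read -1.0, -1.10 and -1.08 against -3.39, -3.44 and -3.37, and with a 5.04-fold fall (-2.33 ± 0.044, limma adjusted p = 2.42e-07) it had the lowest fold change of the 15. By this probe 19.8% of the wild-type signal was left, less than the 40.9% left by the brightest one.

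Probe A_87_P296968 was intermediate. It read -1.28, -1.39 and -1.47 in wild type and -2.99, -2.99 and -2.99 in the knockout, a 3.05-fold fall (-1.61 ± 0.054, limma adjusted p = 1.90e-06). Probe A_87_P192253 was the dimmest, with intensities of 638 to 684 in wild type and 137 to 163 in the knockout, and fell 4.05-fold (-2.02 ± 0.087, limma adjusted p = 5.26e-06).

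**Figure D2:**
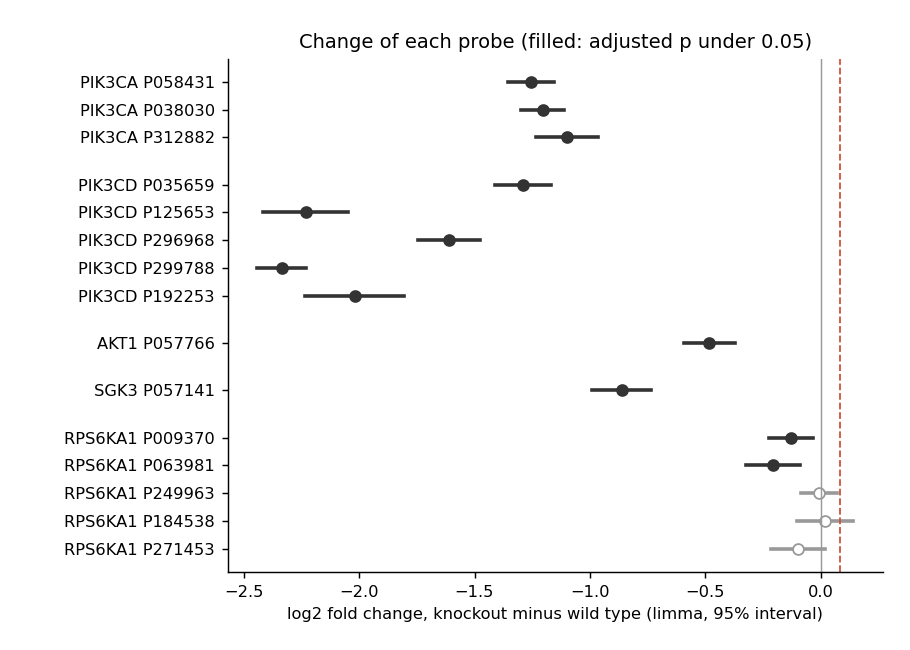
Log2 fold change, knockout minus wild type, of each tested probe (horizontal axis) with limma's 95% interval, filled where the adjusted p is under 0.05; the dashed line marks the median of all 28786 probes (0.08). The PIK3CA probes lie together, the PIK3CD probes spread from -1.29 to -2.33, and the RPS6KA1 probes lie near 0.

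The spread of the PIK3CD probes was larger than the array-to-array error. The brightest and the most changed probe differed in their response by 1.04 on the log2 scale, while their difference within an array varied by 0.0041 (SD, n = 3) among wild-type and 0.047 (SD, n = 3) among knockout arrays. That wild-type SD was the smallest of the 23 probe pairs. Among the 10 PIK3CD pairs the SD was largest for A_87_P125653 with A_87_P192253, at 0.12 in wild type and 0.20 in the knockout. In 8 of the 10 pairs of PIK3CD probes the within-array differences of the groups did not overlap, with an exact two-sided permutation p of 0.1 each, the smallest that 3 against 3 arrays allow (0.16 after adjustment over the 23 probe pairs of the 5 genes). Such separation was also seen in 2 of 3 pairs of PIK3CA and 4 of 10 of RPS6KA1, where the largest differences were 0.16 and 0.23 on the log2 scale against 1.04. Among the PIK3CD pairs only those of A_87_P125653 with A_87_P299788 and with A_87_P192253 overlapped. Pairs of 1 gene share probes and arrays, so their counts are not counts of separate results. The share of separated probe pairs over the other genes of the array was not determined.

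Of the 124 named genes with 5 tested probes, which were not matched for the size of their change, 2 had a wider range between probes than PIK3CD. The median range was 0.24, and whether the range goes with the size of the change was not tested. The order of the 5 probes was the same with normexp, quantile scaling, the authors' values and slide terms and without each array in turn, and normexp narrowed the range from 1.04 to 0.81. All 5 probes carry 1 accession, NM_001012696, and where each lies in the transcript was not determined. Summed up as the mean of its 5 probes, PIK3CD changed by -1.90 ± 0.048, against -1.29 by its brightest probe alone.

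PIK3CA and PIK3CD also shared a small difference between the wild-type arrays. On all 8 of their probes, a pattern noted after the values were seen, wild-type replicate 1 was the highest of the 3 wild-type arrays, and over all tested probes it was the highest in 44.2%. The 8 probes are repeated readings of PIK3CA and PIK3CD on the same arrays, not 8 separate observations. AKT1 and SGK3 did not share the pattern: replicate 1 read -1.36 against -1.29 and -1.30 for AKT1, and 0.51 against 0.52 and 0.44 for SGK3. RPS6KA1 probes varied in it. Without wild-type replicate 1 the change of PIK3CD's brightest probe was -1.26 and that of its most changed probe -2.30.

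AKT1, the gene of the kinase that relays class I PI3-kinase signals to growth and survival, was lower by a smaller amount. Its measurable probe (A_87_P057766) read -1.36, -1.29 and -1.30 in wild type and -1.73, -1.83 and -1.83 in the knockout. The groups did not overlap, and the fall was 1.40-fold (-0.48 ± 0.045, limma adjusted p = 0.000142), which left 71.5% of the wild-type signal. On the other AKT1 probe (A_87_P037975) 0 of 6 arrays were well above background, with intensities of 6.5 to 11 in wild type and 6.3 to 7.8 in the knockout, and it gives no measure of the change. AKT1 therefore rests on a single probe.

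SGK3, the gene of the endosomal relative of AKT, stood between AKT1 and the catalytic subunits in the size of its change. Its single probe (A_87_P057141) read 0.51, 0.52 and 0.44 in wild type and -0.29, -0.45 and -0.38 in the knockout. This was a 1.82-fold fall (-0.86 ± 0.052, limma adjusted p = 2.11e-05), with the groups apart on every array and with differences of -0.80 and -0.97 on the 2 slides that held both groups.

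RPS6KA1, the gene of an RSK kinase, changed little, and its 5 probes did not give 1 answer. The brightest probe (A_87_P009370) read 3.73, 3.69 and 3.73 in wild type and 3.63, 3.54 and 3.60 in the knockout, a fall to 91.4% of the wild-type signal (-0.13 ± 0.039, limma adjusted p = 0.0236). Probe A_87_P063981 read 1.77, 1.79 and 1.90 against 1.64, 1.61 and 1.58, a fall to 86.6% (-0.21 ± 0.048, limma adjusted p = 0.00869). On these probes the groups stood apart by a narrow margin.

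The other 3 RPS6KA1 probes overlapped between the groups and did not pass the test. Probe A_87_P249963 read 1.64, 1.62 and 1.62 in wild type and 1.63, 1.62 and 1.60 in the knockout, and its difference of -0.0081 had a 95% interval from -0.087 to 0.071. The interval of A_87_P184538 ran from -0.10 to 0.14 around a difference of 0.018, and that of A_87_P271453 from -0.22 to 0.020 around -0.098. A change of the size seen for AKT1 lay outside the intervals of all 5 RPS6KA1 probes.

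How many RPS6KA1 probes were called lower depended on the setting: 2 as reported, 4 with each array centred on its median, 3 with quantile scaling and with the authors' processed values, 1 with every probe kept and 0 with a fixed slide term. The call of the brightest probe was also lost without wild-type replicate 1 (limma adjusted p = 0.0643), wild-type replicate 3 (0.0771), knockout replicate 2 (0.0532) or knockout replicate 3 (0.0515). Leaving aside subtraction of the chromosome's median, its limma adjusted p ran from 0.00253 with median centring to 0.177 with the fixed slide term. That subtraction, which lowers RPS6KA1 by construction, gave a limma adjusted p of 1.15e-05.

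**Figure D3:**
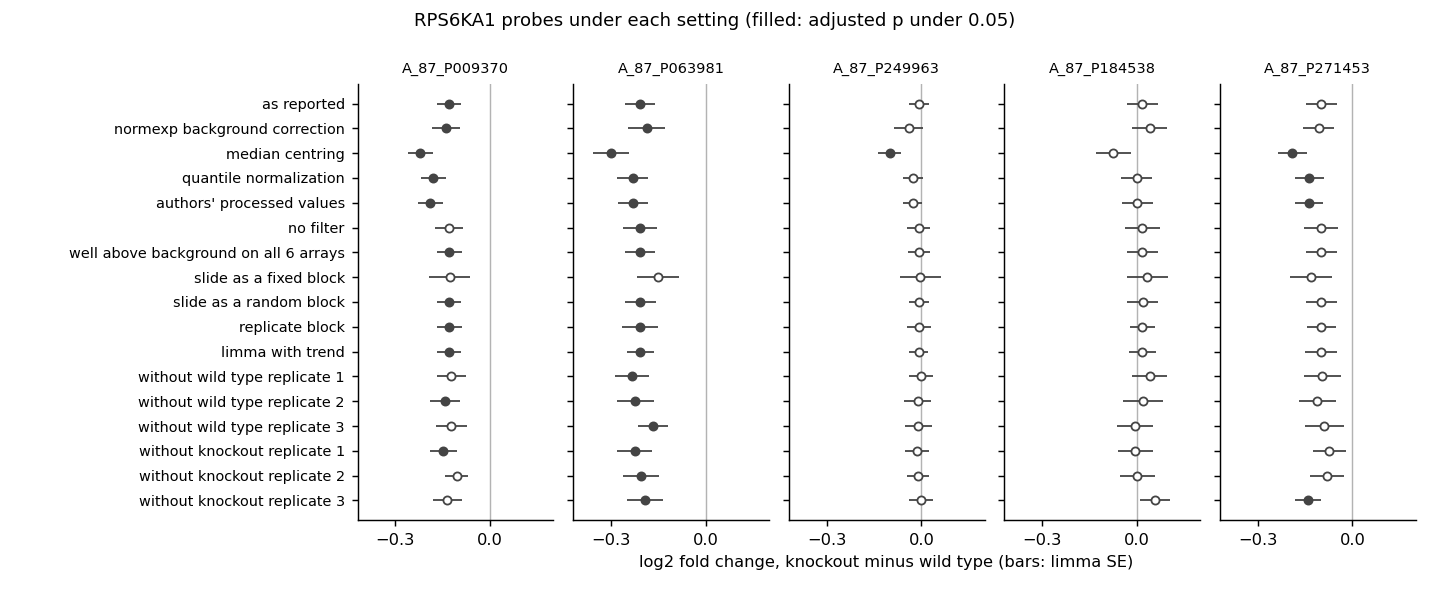
Log2 fold change of the 5 RPS6KA1 probes (horizontal axes, bars are limma's SE) as reported and under the alternatives of background correction, scaling, filter, block and left-out array, filled where the adjusted p is under 0.05. Every plotted value lies between -0.30 and 0.057, subtraction of the chromosome's median is not plotted, and no probe is filled in the fit with a fixed slide term.

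The 2 catalytic subunits that fell have paralogs on the array that did not pass the test. PIK3CB, the gene of the beta subunit, read 1.76, 1.79 and 1.77 in wild type and 1.66, 1.77 and 1.60 in the knockout, a difference of -0.094 with a 95% interval from -0.22 to 0.031 (limma adjusted p = 0.145). PIK3CG, the gene of the gamma subunit, read -1.08, -1.09 and -1.08 against -0.96, -1.03 and -1.0, a difference of 0.083 with an interval from -0.0052 to 0.17 (limma adjusted p = 0.0821). Each of these paralogs was measured by 1 probe. On that probe the interval did not reach the changes measured for PIK3CA and PIK3CD. As probes of 1 gene can differ, this covers the probes and not the whole genes.

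The difference in response was taken within each array for 6 pairs of a member and a paralog, chosen after the values were seen. Each gene was taken by its brightest probe, which for PIK3CD was the least changed one. The log2 fold change of PIK3CA minus that of PIK3CB was -1.16 ± 0.080 (SE), and that of PIK3CD minus PIK3CB was -1.20 ± 0.086. Against PIK3CG the differences were -1.34 ± 0.025 and -1.37 ± 0.032, and for SGK3 against its paralog SGK1 -0.63 ± 0.11. In each of these 5 pairs the groups did not overlap, with an exact two-sided permutation p of 0.1, the smallest possible (0.12 adjusted over the 6 pairs). Each sets a member that fell beside a paralog that fell less or was not called, so separation was likely from the choice. The groups also did not overlap for 75.6% of all single probes, and the share over other gene pairs was not determined. RPS6KA1 and RPS6KA5 differed by -0.0017 ± 0.075 in their response (exact permutation p = 1.0).

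In the wider pathway the changes went both ways. Of 87 listed genes 36 had a probe with a matched accession and 34 were tested, each by its brightest probe: 11 were higher in the knockout, 10 lower and 13 not called. These are 32.4% and 29.4%, beside 38.5% and 31.8% of all 3835 named genes tested (70.2% in either direction), and the median was 0.037 beside 0.051. Without the 5 members, 11 of 29 were higher and 5 lower. The counts moved with the scaling, to 7 higher and 16 lower with median centring, and the lower count was 6 without the filter or without wild-type replicate 1. The higher count was 6 with the fixed slide term.

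**Figure D4:**
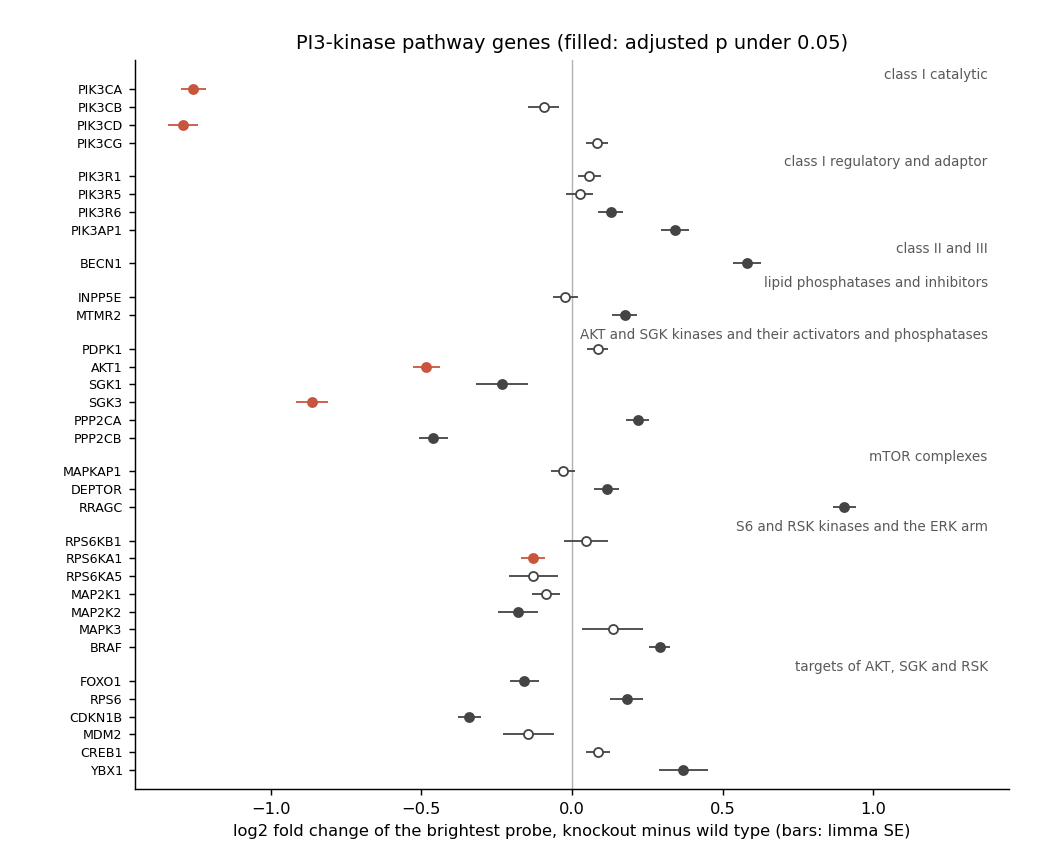
Log2 fold change of the brightest probe of tested pathway genes (horizontal axis, bars are limma's SE), filled where the adjusted p is under 0.05 and with the 5 members in red. PIK3CA, PIK3CD and SGK3 lie lowest, and RRAGC and BECN1 lie highest.

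Among regulatory and adaptor subunits 2 of 4 tested genes were higher and 0 lower. PIK3R1, which encodes the main regulatory subunit that stabilises the catalytic ones, differed by 0.058 ± 0.039 (limma adjusted p = 0.230), with neither of its 2 probes called. PIK3AP1, the adaptor that links the B cell receptor complex to PI3-kinase, rose by 0.34 ± 0.046 with 3 of 3 probes called, and PIK3R6, a regulator of the gamma enzyme, by 0.13 ± 0.042. The PIK3R3 probe was above background on 0 arrays and the PIK3R2 probe on 2 arrays of each group, so neither was tested.

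Upstream and beside AKT1 and SGK3, 4 of 6 tested genes were lower and 1 was higher, beside 31.8% and 38.5% of all named genes tested. The 4 lower genes include the 2 members, which were chosen with earlier results known. PDPK1, which encodes the kinase that activates AKT, SGK and RSK kinases, differed by 0.085 ± 0.035 (limma adjusted p = 0.0716) on its brightest probe, and of its 5 probes 1 was called higher and 1 lower. SGK1 fell by 0.23 (SE 0.086, limma adjusted p = 0.0488) on its 1 tested probe, just under the threshold. The catalytic subunits of protein phosphatase PP2A, which dephosphorylates AKT, went apart: PPP2CB fell by 0.46 (SE 0.048) on a probe that read 0.32, 0.36 and 0.38 in wild type and -0.04, -0.11 and -0.18 in the knockout, and PPP2CA rose by 0.22 (SE 0.039).

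In the mTOR complexes and the branches around them, RRAGC, which encodes a GTPase that brings mTOR to the lysosome, had the highest value of the list. It read 3.43, 3.45 and 3.49 in wild type and 4.40, 4.33 and 4.35 in the knockout, a rise of 0.90 ± 0.038 (limma adjusted p = 4.70e-06) with 2 of 2 probes called. BECN1, a partner of the class III enzyme in autophagy, rose by 0.58 ± 0.046, also on 2 of 2 probes. MTOR, AKT2, SGK2, RPS6KB2 and the other RSK genes of the list matched no probe by accession, so they were not analysed here.

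Among S6 and RSK kinases and the ERK arm 2 of 8 tested genes were higher and 2 lower. RPS6KB1, the gene of an S6 kinase below mTOR, differed by 0.048 ± 0.073 and RPS6KA5 by -0.13 ± 0.082, and neither passed the test. BRAF, which encodes a kinase at the head of the ERK cascade, rose by 0.29 ± 0.033 with 2 of 2 probes called. MAP2K2 fell by 0.18 (SE 0.066) on its brightest probe, just under the threshold (limma adjusted p = 0.0494), with 2 of 3 probes called lower. Of 6 tested targets of AKT, SGK and RSK 2 were higher and 2 lower. YBX1 rose by 0.37 (SE 0.081) with 2 of 2 probes called, and RPS6 rose by 0.18 (SE 0.055) on its 1 tested probe. CDKN1B, a cell cycle inhibitor restrained by AKT, fell by 0.34 (SE 0.038). FOXO1 fell by 0.16 (SE 0.048) on its brightest probe, although 1 of its 4 probes was called higher.

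The members lie on 5 chromosomes whose genes differed in their overall shift. Over all 3837 tested named genes with a place in the genome the median was 0.051. Of all named genes tested 31.8% were lower and 38.5% higher. Among the 101 other tested named genes on the chromosome of PIK3CA, 81 were lower and 7 higher, with a median of -0.64. All 10 nearest tested genes had values below 0 and 9 of them were called lower. MFN1 on one side stood at -0.81 ± 0.047 and TBL1XR1 on the other at -0.91 ± 0.049. PIK3CA changed further than its chromosome's median, 15 of the 101 genes (14.9%) had a value at or below its own, and with that median subtracted its brightest probe stood at -0.61 (limma adjusted p = 1.78e-05). The median was subtracted as a fixed value, so this p measures the spread between arrays and not that between genes of the chromosome.

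SGK3 also lies among genes that were mostly lower. Of 336 other tested genes on its chromosome 228 were lower and 53 higher (median -0.42), and its nearest neighbours VCPIP1 and COPS5 stood at -0.39 ± 0.039 and -0.37 ± 0.046. Of these 336 genes 66 (19.6%) had a value at or below that of SGK3. With the chromosome's median subtracted SGK3 stood at -0.44 (limma adjusted p = 0.000300), a p that again leaves out the spread between genes of the chromosome. Of its 10 nearest tested genes 7 were called lower and 1 higher. The part of these chromosome-wide shifts in the changes of PIK3CA and SGK3 was not tested beyond this subtraction.

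PIK3CD and AKT1 lie on chromosomes whose medians were above 0, as was that of all placed genes (0.051). The chromosome of AKT1, with 24.0% of its other genes lower and 40.9% higher, was close to the array as a whole. The 70 other tested genes on the chromosome of PIK3CD had a median of 0.14, with 12 lower and 34 higher, and its nearest neighbours went apart: ENO1 stood at 0.34 ± 0.046 and CLSTN1 at -2.44 ± 0.055. Of its 10 nearest tested genes 7 had values below 0, and 4 were called lower (SAMD11 at -1.57, CENPS at -0.75 and LZIC at -0.33 beside CLSTN1) and 3 higher. Of the 70 genes 5 (7.14%) had a value at or below that of PIK3CD's brightest probe. The 296 other tested genes on the chromosome of AKT1 had a median of 0.093, with 71 lower and 121 higher, and 32 of them (10.8%) had a value at or below that of AKT1. Of its 10 nearest tested genes 2 were called lower and 3 higher, and the neighbours ADSS1 and CDCA4 stood at 0.62 ± 0.051 and -0.16 ± 0.053.

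RPS6KA1 lies among genes that were mostly higher. Of 64 other tested genes on its chromosome 50 were higher and 5 lower (median 0.52), and of its 6 nearest tested genes, all with values above 0, 5 were called higher. Of the 64 genes 6 (9.38%) had a value at or below that of its brightest probe. ARID1A on one side stood at 0.82 ± 0.048 and HMGN4 on the other at 0.35 ± 0.040. With the chromosome's median subtracted the 5 RPS6KA1 probes stood between -0.72 and -0.49, so the subtraction turned the small positive value of A_87_P184538 to -0.49.

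**Figure D5:**
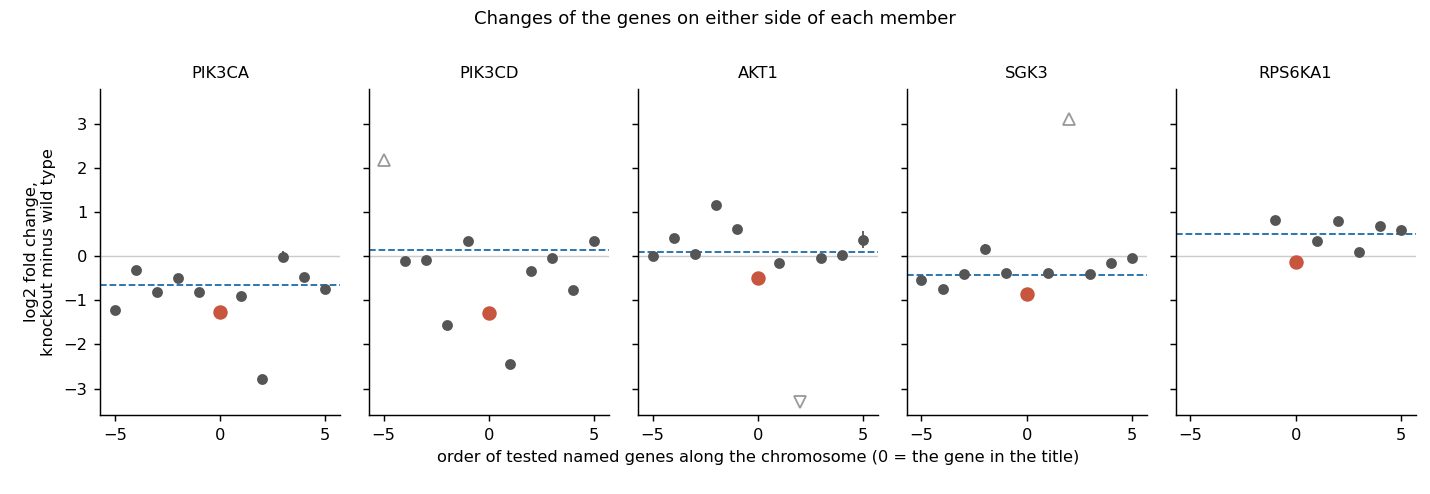
Log2 fold change (vertical axis, bars are limma's SE) of each member (red) and of up to 5 tested named genes on either side in their order along the chromosome (horizontal axis), with a dashed line at the median of the chromosome's other genes. Open triangles are genes at background throughout one group, drawn at their fitted value or at the axis limit, where they have no measured size. The genes around PIK3CA and SGK3 lie mostly below 0 and those around RPS6KA1 above 0.

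The named genes with the most similar pattern over the 6 arrays were found by the root mean square difference of mean-centred log2 signals, among 3820 genes. MYO1G, a myosin gene, was nearest to PIK3CA (difference 0.030, log2 fold change -1.25 ± 0.045), followed by TPBG (0.036). For PIK3CD's brightest probe they were ST3GAL5, a sialyltransferase gene (0.027), and again MYO1G (0.033). PPP2CB, which is on the pathway list, was nearest to AKT1 (0.025), followed by KAT14 (0.026). For SGK3 they were CCDC6 (0.033) and SYT11 (0.034), and for RPS6KA1 AMACR (0.012) and RABEP1 (0.015). With 2 groups of 3 arrays this measure mostly reflects the size of the group difference.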

How the data were processed

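Total RNA of 6 DT40 cultures was labelled with Cy3 for one-colour arrays, per the labels' protocols; the dye field of the labels reads biotin. Per the file headers, the arrays were read with Feature Extraction 10.7.1.1 and annotated on galGal3. The deposited processed signals are background-subtracted linear intensity values, not scaled between arrays, and the deposited median and background intensity values served normexp, because the files hold no mean signal column. Codes of 0 and 1 in the deposited files gave the flags. The authors' processed table holds intensity values on a linear scale, scaled between arrays by an unstated method, with the same median of 225.7 on every array. Limma and R 2.12.0 appear in the submitters' processing notes, their role unstated.

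Between 62.4% and 68.2% of 43803 gene spots an array were well above background, and none was saturated. Arrays correlated at r of 0.997 to 0.998 within and 0.939 to 0.940 between groups. The number of arrays limits the precision. Signals were taken as log2 minus the array's 75th percentile, without control spots and spots flagged as outliers (72 to 152 an array). A probe was tested if well above background on all 3 arrays of a group. Unversioned accessions were looked up in a RefSeq gene table on another build (GRCg7b), used only for names and gene order: 10691 of 43603 probes gained 1 gene, 32912 none and 0 several. Lists were matched by current symbol. Limma 3.58.1 in R 4.3.3 (lmFit, eBayes, group only, two-sided) was fitted over all 28786 probes. On simulated data of 28629 probes it called 89 of 100 probes with a log2 change of 1 and 56 of 100 with 0.5, and 4 of 28429 unchanged ones. Few probes were changed in the simulation, while 70.1% of the tested probes were called in the data. The adjusted threshold was therefore stricter in the simulation, and these rates do not carry over to the data. Pairs of probes or genes were compared by exact permutation tests of within-array differences. Replicate numbers did not pair the arrays: deviations from the group means correlated at -0.014, -0.0080 and -0.012 for numbers 1 to 3.

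The members, lists and alternatives were chosen with earlier results of these data known. Genes were named by rule: the 5 members, IRF4, members' paralogs, PIK3R1, PDPK1 and MTOR, listed genes called with a log2 change of at least 0.5 in size, the nearest tested gene on each side and the 2 genes of most similar pattern. Some listed genes count in the totals but are not reported here by name. Other listed genes, markers and neighbours were named as examples after their values were seen. Alternatives were normexp (offset 50), median centring, quantile scaling, the authors' values, both other filters, slide or replicate number as a block, limma with trend, gene-level values, subtraction of chromosome medians, and leaving out each array.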

Additional observations from a re-analysis of the deposited data

How the results depend on the processing

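All tested probes of PIK3CA, PIK3CD, AKT1 and SGK3, and both IRF4 probes, kept their direction and their call under every alternative run, 53, 87, 19, 19 and 31 values in turn. Before subtraction of chromosome medians, PIK3CA's brightest probe ran from -1.35 with median centring to -1.23 without knockout replicate 2. PIK3CD's ran from -1.38 to -1.26 in the same fits. Taken as the mean of all its probes, PIK3CA stood at -1.19 and PIK3CD at -1.90. RPS6KA1 kept its call or lack of one in 72 of 87 values. Its brightest probe missed the threshold with no filter (-0.13) and with a fixed slide block (-0.13), and ran from -0.15 to -0.11 as each array was left out; A_87_P063981 missed it with the slide block (-0.15). A_87_P249963 passed with median centring (-0.10), and A_87_P271453 with median centring (-0.19), quantile scaling (-0.14), the authors' values (-0.14) and in 1 of the fits without 1 array (range -0.14 to -0.073). Subtracting the chromosome's median, which by construction lowers RPS6KA1, brought A_87_P249963 to -0.52, A_87_P271453 to -0.61 and A_87_P184538 from 0.018 to -0.49, all called. Pathway genes called lower numbered 10, but 16 with median centring, 6 without the filter and 6 to 8 as each array was left out; those called higher numbered 11, but 7 with median centring and 6 with the slide block. Median centring gave 9241 higher and 10304 lower probes against 11657 and 8520. With the replicate block 8157 probes were lower and 11116 higher and PIK3CA's brightest probe stayed at -1.26; the numbers do not pair the arrays, and no call of a member changed. Where no construction is named, the cause was not tested. With 3 arrays a group and fixed slide blocks, only the 2 slides holding both groups inform the contrast. The second AKT1 probe, at background, allows no statement.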
